A study of Mus musculus with 2 samples.

Results

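PPARβ, encoded by Ppard, is a nuclear receptor that acts on genes of lipid and glucose metabolism. Regenerating livers of wild-type (WT) mice and mice lacking PPARβ (KO) were compared for 9 genes that store, release or make glucose in hepatocytes. The genes were picked by symbol for their place in these pathways. They were Pck1, Fbp1 and G6pc of gluconeogenesis, the glucose carrier Slc2a2, the glucokinase regulator Gckr, and Gys2, Pygl, Ppp1r3b and Ppp1r3c of glycogen metabolism. All 9 had 1 row each among the 33224 gene symbols of the table, and none of these rows was marked as a failed estimate. RNA-sequencing was done on 1 WT and 1 KO library, so no value has an error between mice and no test was run. Both libraries were labelled as C57BL/6 liver at 4 months of age, from male mice with free access to food, and they differed in genotype as wild type or PPARbeta-null. The study's text places both groups at 48 hr after partial hepatectomy (PH), the surgical removal of most of the liver. The labels do not say whether 1 mouse or a pool stands behind a library, nor which null allele was used.

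Gluconeogenesis builds glucose from lactate, amino acids and glycerol, and the liver exports it to the blood when food is scarce. Glycogen, the branched store of glucose, is extended by glycogen synthase and cut back by glycogen phosphorylase. Protein phosphatase 1 (PP1) is held on glycogen by targeting subunits of the Ppp1r3 family, and there it switches the synthase on and the phosphorylase off. After PH the remaining liver has to keep up glucose output while its cells divide.

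The levels of Pck1 and Fbp1, the most abundant of the 9 genes, were nearly the same in both libraries. Levels are in FPKM, fragments counted per length of exon and adjusted for library size. In contrast, G6pc was 1.97-fold and Ppp1r3c 3.57-fold higher in KO, while Ppp1r3b was 2.30-fold lower. The other 4 genes, Slc2a2, Gckr, Gys2 and Pygl, differed by at most 1.27-fold in FPKM as deposited. A fold of 1.5 was used to count differences. More than 1.5-fold lower in KO was 1 of the 9 genes, against 19.9% of the 11723 genes whose mean FPKM reached 1, here called expressed genes. More than 1.5-fold higher in KO were 2 of the 9, against 4.2% of those genes. At 2-fold, 1 of the 9 was lower, against 8.69%, and 1 was higher, against 1.77%. All 9 had a mean FPKM above 10, and of the 5109 genes at that level 13.3% were lower and 4.97% higher in KO by 1.5-fold, and 5.07% lower and 2.0% higher by 2-fold.

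**Figure D1:**
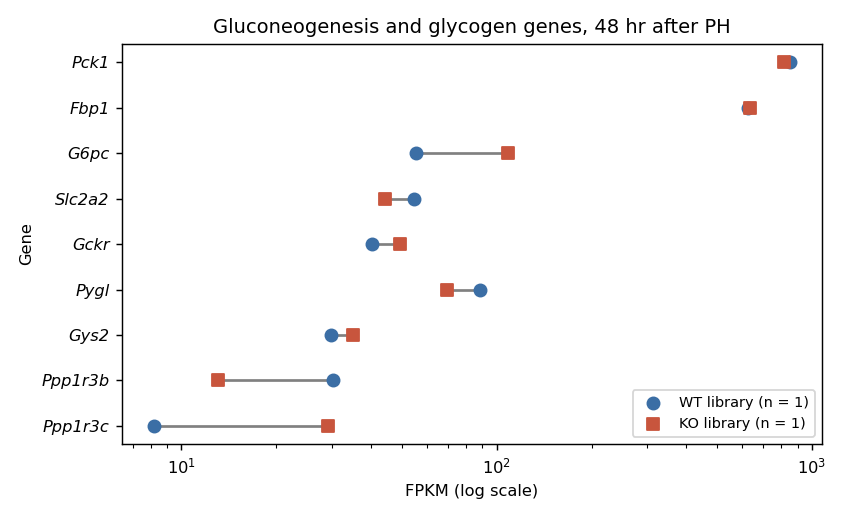
FPKM on a log axis (horizontal) of the 9 genes (vertical) in the WT library (circles) and the KO library (squares), 1 library each, with a line joining the values of a gene. The points of Pck1 and Fbp1 overlap near the right edge, and the longest line is that of Ppp1r3c, from 8.19 to 29.2.

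Ppard, the targeted gene, had 2.67 FPKM in WT against 2.42 in KO, a difference too small to tell the genotypes from this locus. Of the 11723 genes, 75.6% were lower in KO and the median log2 KO/WT, with 0.1 FPKM added to both values, was -0.24. A log2 KO/WT relative to this median, taken in the same way, is given beside each ratio below. Cell division genes were far apart. Mki67, a marker of cycling cells, had 10.9 FPKM in WT against 0.0445 in KO, and all 8 cell cycle genes listed were more than 2-fold lower in KO. On a transcript of 1 kb, an FPKM of 1 stood for about 54.0 fragments of WT RNA or 56.1 of KO RNA, as estimated from single-exon genes. This estimate is a median within a chosen range of values and depends on that range, so the fragments and intervals below are rough. The 9 genes rested on between about 1202 fragments, for Ppp1r3c in WT, and about 125374, for Pck1 in WT. The 95% intervals given with the ratios use the exact binomial method on these estimated fragments and cover counting error only.

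For 7 of the 9 genes RefSeq (GRCm38.p6) gave a promoter, and Gys2 and Ppp1r3b had no entry. The 250 bases before the start site are shown for G6pc and Ppp1r3c, the genes that were higher in KO by more than 1.5-fold, and for Pck1, the gluconeogenesis gene with a level close to that of WT. Capitals mark matches, on either strand, to 4 short motifs. These were TGACG, found in cAMP response elements, TGTTT, the core of forkhead sites, AGGTCA, bound by nuclear receptors, and the E-box CACGTG. The regions are chr11:101367466-101367715 on the plus strand for G6pc, chr19:36736605-36736854 on the minus strand for Ppp1r3c and chr2:173152823-173153072 on the plus strand for Pck1.
G6pc: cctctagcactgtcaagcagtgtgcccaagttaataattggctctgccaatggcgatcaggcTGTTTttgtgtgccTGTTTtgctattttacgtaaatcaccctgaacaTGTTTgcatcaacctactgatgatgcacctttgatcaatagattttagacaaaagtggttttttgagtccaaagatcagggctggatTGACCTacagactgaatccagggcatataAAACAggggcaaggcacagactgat
Ppp1r3c: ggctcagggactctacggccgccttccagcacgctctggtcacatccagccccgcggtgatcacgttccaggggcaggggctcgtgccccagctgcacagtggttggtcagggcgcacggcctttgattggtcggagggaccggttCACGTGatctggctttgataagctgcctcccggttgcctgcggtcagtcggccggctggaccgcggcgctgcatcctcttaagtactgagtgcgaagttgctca
Pck1: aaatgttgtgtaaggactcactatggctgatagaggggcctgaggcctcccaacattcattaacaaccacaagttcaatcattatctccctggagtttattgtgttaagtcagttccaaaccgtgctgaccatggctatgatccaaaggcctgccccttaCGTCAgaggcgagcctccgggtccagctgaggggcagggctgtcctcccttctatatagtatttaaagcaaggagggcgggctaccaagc
The G6pc promoter held 4 matches to TGTTT, beginning 188, 174, 141 and 25 bases before the start, and 1 to AGGTCA. In Ppp1r3c the only match was an E-box, 104 to 99 bases before the start. In Pck1 the only match was TGACG on the opposite strand, 90 to 86 bases before the start. The motifs had no overlap with each other in these promoters. Among the promoters not shown, AGGTCA also matched in Slc2a2 and Pygl, TGACG in Pygl and TGTTT in Gckr, and Fbp1 had no match. Among 32851 promoter entries of the same length, TGTTT occurred in 46.4%, TGACG in 17.8%, AGGTCA in 14.0% and CACGTG in 6.02%. A match describes the letters and does not show that a factor was bound.

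Pck1 encodes the cytosolic phosphoenolpyruvate carboxykinase (PEPCK), which commits oxaloacetate to glucose synthesis. It lies on chromosome 2 of NCBIM37 (mm9), and its locus ran from 172977308 to 172984774 on the plus strand. The FPKM of Pck1 was 852 in WT and 818 in KO, which placed it at rank 92 of all genes by mean FPKM. Its KO/WT ratio was 0.960 (95% interval 0.953 to 0.968). Relative to the median of all genes the log2 KO/WT was 0.18, so the sign of this small difference depended on the scaling. Pck2, the mitochondrial enzyme of the same reaction, had 3.02 FPKM in WT against 0.341 in KO, 8.86-fold lower. Pck1 thus made up 99.6% of the summed FPKM of both genes in WT, and Pck2 0.353%.

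Fructose-1,6-bisphosphatase, the enzyme that reverses the phosphofructokinase step, is encoded in liver by Fbp1 (chromosome 13, locus 62966113 to 62989766, minus strand). The WT library had 626 FPKM of Fbp1 and the KO library 635, so the ratio was 1.02 (95% interval 1.0 to 1.03) with a log2 KO/WT of 0.26 relative to the median. The annotated gene Gm17367 overlaps this locus on the other strand, and reads of both directions cannot be told apart in a library that does not keep strand. Fbp2, the muscle form, was near the limit of detection, with 0.0263 FPKM in WT against 0.189 in KO. Pck1 and Fbp1 also kept nearly the same proportion to each other, with a ratio of FPKM of 1.36 in WT and 1.29 in KO.

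Glucose leaves the pathway through the catalytic subunit of glucose-6-phosphatase, encoded by G6pc, which completes both gluconeogenesis and glycogen breakdown in the endoplasmic reticulum. G6pc (chromosome 11, locus 101228875 to 101239217, plus strand, 5 exons) had 55.3 FPKM in WT against 109 in KO. The KO/WT ratio was 1.97 (95% interval 1.92 to 2.03), a log2 KO/WT of 0.98 and of 1.22 relative to the median. Of the 11723 genes, 1.79% had a higher log2 KO/WT. Slc37a4 encodes the carrier that brings glucose 6-phosphate to this enzyme, and its FPKM was 63.4 in WT and 71.0 in KO. The level of G6pc was therefore 0.873 times that of Slc37a4 in WT and 1.54 times that in KO. G6pc3, the widely expressed catalytic subunit, had 4.35 FPKM in WT against 3.57 in KO, and relative to the median its log2 KO/WT was -0.04. The level of Pck1 was 15.4 times that of G6pc in WT and 7.49 times that in KO.

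Slc2a2 encodes GLUT2, the low-affinity carrier through which glucose crosses the hepatocyte membrane in both directions. Its FPKM was 54.5 in WT and 44.2 in KO, 1.23-fold lower (95% interval 1.19 to 1.27). Relative to the median the log2 KO/WT was -0.06, close to the middle of all genes. The locus in the table (chromosome 3, 28596770 to 28680030, plus strand) extends beyond the annotated end of Slc2a2 at 28627278 and covers the annotated genes 1700112D23Rik, AC122490.1 and Gm6505, so some of its fragments can come from these. Slc2a2 made up 65.9% of the summed FPKM of 7 Slc2a carriers in WT and 71.4% in KO. Slc2a1, the carrier of most dividing cells, had 7.99 FPKM in WT against 3.71 in KO and made up 9.67% and 5.99%.

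Gckr encodes the protein that holds glucokinase inactive in the hepatocyte nucleus until glucose or fructose enters the cell. Gckr (chromosome 5, locus 31599038 to 31629673, plus strand, 19 exons) had 40.3 FPKM in WT against 49.3 in KO. The KO/WT ratio was 1.22 (95% interval 1.18 to 1.27), below the 1.5-fold line, and its log2 KO/WT relative to the median was 0.53. As most genes were lower in KO, a ratio of this size was above that of 91.6% of genes.

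**Figure D2:**
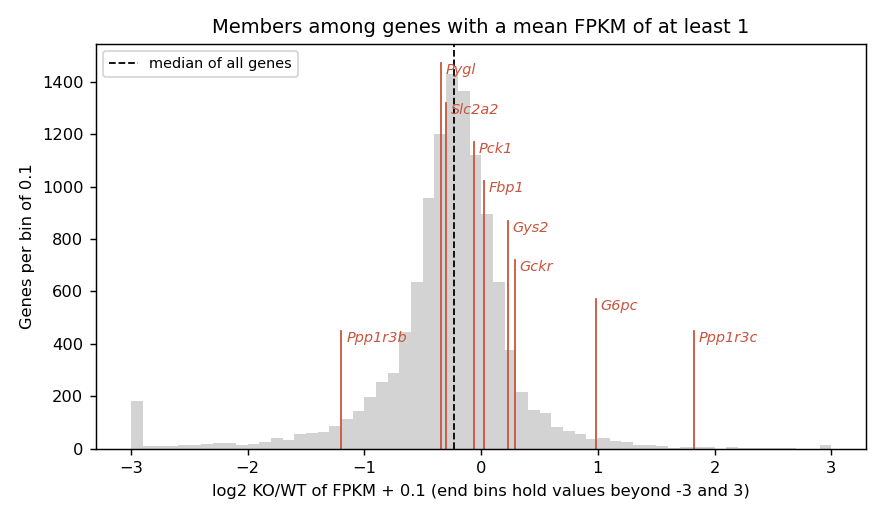
Histogram of log2 KO/WT, with 0.1 FPKM added, for the 11723 expressed genes (vertical: genes per bin of 0.1), with red lines at the 9 genes and a dashed line at the median of -0.24. Line height carries no value. Pygl and Slc2a2 lie next to the median, and Ppp1r3b, G6pc and Ppp1r3c lie in the tails.

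Gys2 and Pygl, which extend and cut back the glycogen chain, differed by less than 1.5-fold. Gys2 is the liver glycogen synthase (chromosome 6, locus 142371133 to 142421629, minus strand). It had 29.9 FPKM in WT against 35 in KO. The KO/WT ratio was 1.17 (95% interval 1.13 to 1.22), with a log2 KO/WT of 0.47 relative to the median. Pygl, the liver glycogen phosphorylase (chromosome 12, locus 71291798 to 71335152, minus strand), had 88.4 FPKM in WT against 69.6 in KO, 1.27-fold lower (95% interval 1.24 to 1.3) and at -0.11 relative to the median. The gene F730035M05Rik, annotated on the other strand, lies within the reach of the Pygl locus. Within a library, the level of Pygl was 2.96 times that of Gys2 in WT and 1.99 times that in KO, a proportion that no scaling of the libraries changes. The liver forms dominated in both libraries. Gys2 made up 96.9% of the FPKM of Gys1 and Gys2 in WT and 98.6% in KO, and Pygl made up 97.8% and 98.6% of that of Pygl, Pygb and Pygm.

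The largest differences among the 9 genes were those of Ppp1r3b and Ppp1r3c, and they had opposite signs. Ppp1r3b encodes the targeting subunit known as GL, which is enriched in liver and bound by active phosphorylase. Ppp1r3c encodes PTG, which is found in many tissues and binds the phosphatase, glycogen synthase and phosphorylase. Ppp1r3b (chromosome 8, locus 36438593 to 36451625, plus strand, 2 exons) had 30.3 FPKM in WT against 13.1 in KO, 2.30-fold lower (95% interval 2.21 to 2.40). Its log2 KO/WT was -1.20 and -0.96 relative to the median, and 6.06% of genes had a lower value. Ppp1r3c (chromosome 19, locus 36806227 to 36811143, minus strand, 2 exons) had 8.19 FPKM in WT against 29.2 in KO, 3.57-fold higher (95% interval 3.35 to 3.81). Its log2 KO/WT with 0.1 FPKM added was 1.82 and 2.06 relative to the median, and 0.409% of genes had a higher value. No other annotated gene overlaps either locus.

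The order of the subunits was exchanged between the libraries. In WT the level of Ppp1r3b was 3.70 times that of Ppp1r3c, and in KO it was 0.450 times that, an 8.22-fold shift within the libraries that scaling does not alter. As deposited, the summed FPKM of 6 targeting subunits was almost equal, at 40.4 in WT and 43.8 in KO. Unlike the proportion, this near equality depends on the scaling, as centring on the median of expressed genes multiplies KO values by 1.18. Ppp1r3b made up 74.9% of this sum in WT and 30.0% in KO, and Ppp1r3c made up 20.3% and 66.7%. Ppp1r3e, the next in level among these 6, had 1.84 FPKM in WT against 1.41 in KO. Ppp1r3a, Ppp1r3d and Ppp1r3g were below 0.1 FPKM in both libraries. Ppp1r3f shares its row with Ccdc22, at 3.84 FPKM in WT against 3.53 in KO, and was left out of the sum. The catalytic subunits of PP1 were lower in KO by less than 1.5-fold, at 1.29-fold for Ppp1ca, 1.42-fold for Ppp1cb and 1.38-fold for Ppp1cc.

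**Figure D3:**
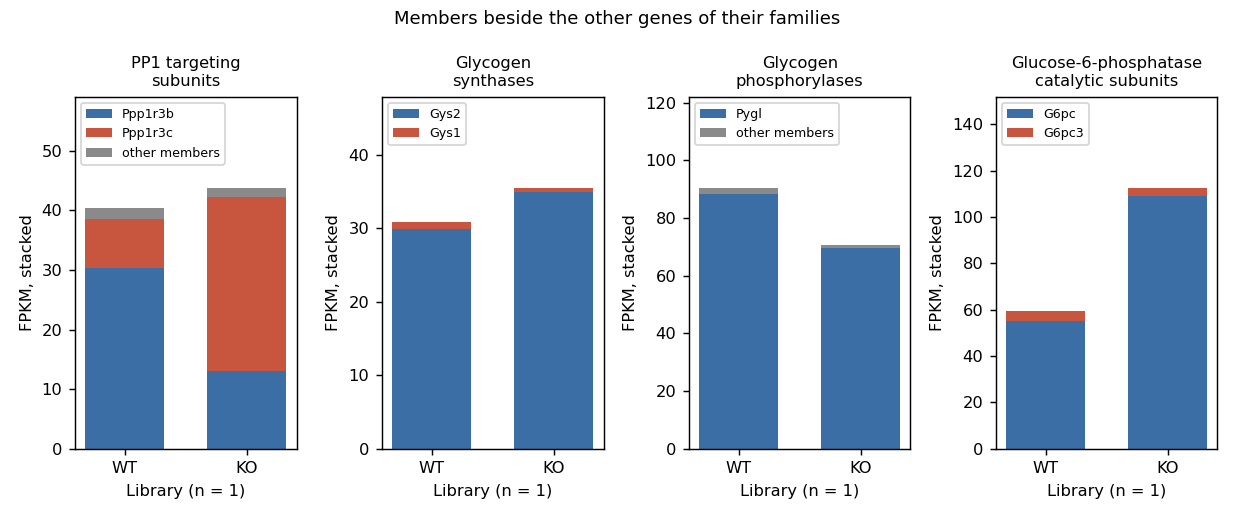
Stacked FPKM (vertical, each panel with its own scale from 0) of the WT and the KO library (1 each) for PP1 targeting subunits, glycogen synthases, glycogen phosphorylases and glucose-6-phosphatase catalytic subunits. The targeting subunits sum to 40.4 in WT and 43.8 in KO with Ppp1r3b the larger part in WT and Ppp1r3c in KO, whereas a single gene makes up nearly all of each other family.

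The other genes of these pathways were counted in the same way. All list counts below stand beside 19.9% of expressed genes more than 1.5-fold lower in KO and 4.2% more than 1.5-fold higher. Among 24 further gluconeogenesis genes, 22 were expressed, and of these 5 were more than 1.5-fold lower and 2 more than 1.5-fold higher in KO. Ldha, which interconverts lactate and pyruvate, had 549 FPKM in WT against 1133 in KO. Sds, which turns serine into pyruvate, had 173 FPKM in WT against 81.4 in KO. The cytosolic malate dehydrogenase Mdh1 was 1.78-fold lower in KO, and the aspartate aminotransferase Got2 was 1.08-fold lower. The median log2 KO/WT was -0.10 over these 24 genes and 0.02 over the 9 genes, beside -0.25 over 15727 genes at 0.1 FPKM or more on average. Scaling to equal upper quartiles turned the first of these medians to 0.10.

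Among 20 further glycogen genes, 5 of the 15 expressed were more than 1.5-fold lower in KO and 0 were higher by that fold. Gyg, the protein primer on which glycogen starts, had 5.04 FPKM in WT against 2.17 in KO. The branching enzyme Gbe1 was 1.57-fold lower in KO. Pygb, the brain phosphorylase, was 3.38-fold lower, with 1.55 FPKM in WT against 0.458 in KO. Ugp2, which makes the UDP-glucose that the synthase uses, was 1.10-fold lower, and Pgm2 was within 1.02-fold. The median log2 KO/WT of the glycogen genes was -0.26, next to that of all genes.

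Of the genes for fructose and sugar entry, Khk, the fructokinase, shares its row with Emilin1 and was at 144 FPKM in WT against 162 in KO. Slc2a9, a urate and hexose carrier, was 1.27-fold lower in KO and the fructose carrier Slc2a5 was 2.37-fold lower. In all, 3 of 5 such genes that were expressed were more than 1.5-fold lower, against 19.9% of all expressed genes. The enzymes that set fructose 2,6-bisphosphate, the switch between glycolysis and gluconeogenesis, included Pfkfb1, the main liver form, with 34.8 FPKM in WT against 24.3 in KO. Pfkfb2 was 1.17-fold higher in KO. Pfkfb3, the form that favours glycolysis, had 7.60 FPKM in WT against 3.08 in KO, the only gene of 4 expressed past 1.5-fold.

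Of 21 regulators of gluconeogenesis genes, mostly transcription factors and cofactors, 14 were within 1.5-fold, beside 8901 of the 11723 expressed genes. In KO, 5 were more than 1.5-fold lower, against 19.9% of expressed genes, and 2 more than 1.5-fold higher, against 4.2%. Creb3l3, a membrane-bound factor of the fasted liver, had 75 FPKM in WT against 147 in KO, and Nr0b2, the corepressor SHP, had 15.4 and 34.2. Srebf1, the lipogenic factor, was 5.06-fold lower in KO. Cebpb was 1.27-fold lower. Hnf4a was 1.12-fold higher, in a row whose comparison had failed in Cuffdiff.

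In the list of glucagon, cAMP and insulin signalling, 1 of 14 genes was more than 1.5-fold lower and 2 were more than 1.5-fold higher in KO. Igfbp1, a secreted binding protein that insulin represses, had 108 FPKM in WT against 360 in KO. Pde4b, a cAMP phosphodiesterase, had 2.09 and 4.30. The glucagon receptor Gcgr was at 91.0 in WT and 109 in KO, and Gnas was 1.07-fold higher.

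**Figure D4:**
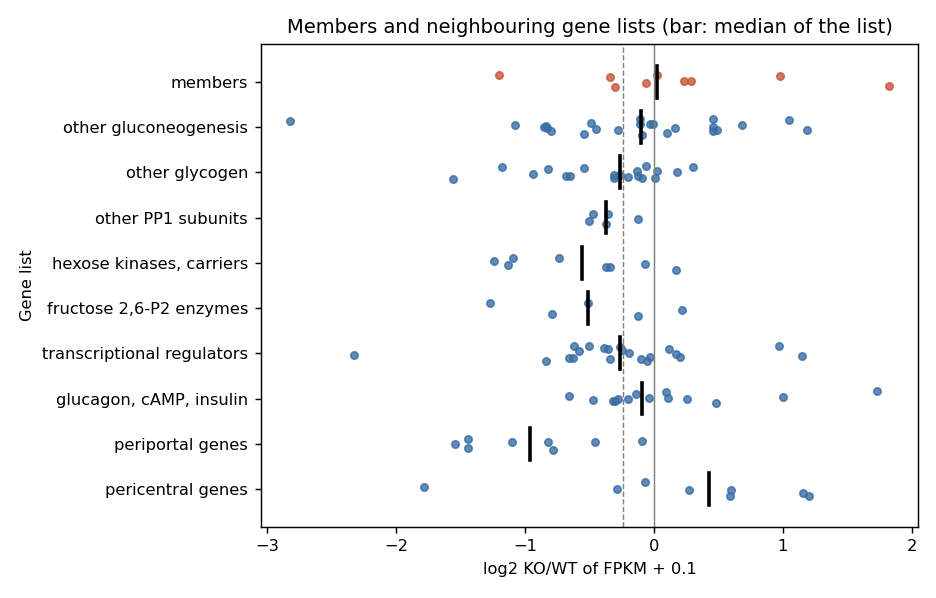
Log2 KO/WT with 0.1 FPKM added (horizontal) of each gene at 0.1 FPKM or more on average in 10 gene lists (vertical), with a black bar at the median of each list, a solid line at 0 and a dashed line at the median of all genes, -0.24. The 9 genes (red) spread from -1.20 to 1.82 around a median of 0.02, while periportal genes have a median of -0.96 and pericentral genes one of 0.43.

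Gluconeogenesis is mainly a task of periportal hepatocytes, so genes of both zones were set beside these results. All 8 periportal genes were lower in KO, against 75.6% of expressed genes, and 6 were more than 1.5-fold lower, against 19.9%. Ass1, Cps1 and Arg1 of the urea cycle were 2.72-fold, 2.15-fold and 1.77-fold lower, Cyp2f2 was 2.71-fold lower and Gls2, the liver glutaminase, 2.91-fold. Of 8 pericentral genes 4 were more than 1.5-fold higher and 1, Cyp1a2, was 3.44-fold lower. Cyp2e1 was 2.23-fold and the Wnt target Axin2 2.35-fold higher, Oat was 1.20-fold higher and Rgn 1.22-fold lower. The log2 KO/WT of the gluconeogenesis genes Pck1, Fbp1 and G6pc was -0.06, 0.02 and 0.98. Over the 8 periportal genes it ran from -1.54 to -0.09, the value of Pigr. The part of zonation in the results of the 9 genes was not tested.

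Both libraries carried hepatocyte transcripts at high levels, and 5 hepatocyte markers summed to 12715 FPKM in WT against 15078 in KO. These markers went both ways. Tat, which breaks down tyrosine, was 1.87-fold lower in KO and Fgb, a fibrinogen chain, was 1.68-fold higher, while Ttr, Apoa1 and Serpina1a lay within 1.5-fold. Alb, the sixth, was among the failed estimates. Of 30 markers of macrophages, neutrophils, endothelial cells, stellate cells and cholangiocytes, 23 were expressed. Of these 22 were lower in KO, where 75.6% of all expressed genes were lower. Their summed FPKM in WT and KO was 41.2 and 26.5 for macrophages, 13.6 and 7.27 for neutrophils, 48.5 and 34.6 for endothelial cells, 94.7 and 66.6 for stellate cells, and 29.8 and 25.7 for cholangiocytes. A single gene made up most of the last 2 sums, Dcn with 62.6 and 46.9 for stellate cells and Spp1 with 24.5 and 22.7 for cholangiocytes. The neutrophil markers Ly6g and Mpo were listed at 0 in both. Lymphocyte markers summed to 0.477 and 0.274, and erythroid markers to 295 and 252. In bulk RNA, fewer cells of a type and less RNA per cell cannot be told apart, and the part of these cells in the results was not tested. Markers of kidney tubule, the other tissue that makes glucose, summed to 0.123 and 0.0487, and those of skeletal muscle to 0.0624 and 0. Pancreatic acinar markers were at or near 0 but for Cela1, with 8.77 FPKM in WT against 18.8 in KO.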

How the data were processed

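Liver RNA was sequenced as 1 WT and 1 KO library, prepared by a method that does not keep strand. The authors aligned the reads with TopHat (2.0.0) to NCBI37 (mm9), assembled transcripts with Cufflinks (1.3.0) and used Cuffdiff, and they deposited 1 FPKM per locus and library. Whether quartile normalization was used is not given in the sources used here. The deposited table also holds the fold change, test statistic, p-value and q-value of the authors' own comparison, which were not used here. Of 38016 loci, 21 marked HIDATA were left out as failed estimates. Rows of a symbol were summed, and each symbol of the 850 loci that name several was given the joint value.

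Ratios were taken from FPKM as deposited. For lists, and for every log2 KO/WT set against the median of all genes, 0.1 FPKM was added to both values before taking log2, so differences of weakly expressed genes come out too small, and genes averaging under 0.1 FPKM were left out. The depth was estimated as the median FPKM of 1 fragment on 1 kb over single-exon genes of at least 400 nt, between 0.012 and 0.026 FPKM. This window held 101 of 918 such genes with a value in WT and 97 of 877 in KO. A median within a fixed window tends to lie near its middle, and the window was not varied. Fragments of a gene follow from the longest transcript in GENCODE vM1 on NCBIM37, which also gave gene positions. Coordinates of genes are those of the loci, counted from 1. Promoter coordinates are on GRCm38.p6. Software was pandas 2.3.3, numpy 2.4.6, matplotlib 3.10.9 and scipy 1.17.1 in Python 3.11.15. The median log2 KO/WT, the 2-fold counts and the centring were tested on simulated libraries, and the other steps were not.

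The 9 genes and all lists were chosen with earlier results of these data known. Outside the 9 genes, those named were the 3 most abundant of each pathway or zonation list and, among genes averaging 1 FPKM or more, up to 3 past 2-fold in each direction. Genes named outside this rule, Slc37a4, G6pc3, Fbp2, Ppp1r3a, Ppp1r3d, Ppp1r3e, Ppp1r3f, Ppp1r3g, Pigr and the cell type markers among them, were chosen after their values were seen, as were the families whose FPKM was summed and the promoter motifs. Some genes that this rule or the lists would include are left unreported. Of the cell cycle list only Mki67 is named, and its other genes are counted.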

Additional observations from a re-analysis of the deposited data

How the results depend on the processing

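Leaving out a library was not possible, since each genotype had 1. No paired analysis was possible because each group holds 1 sample and no test was run. Alternatives covered library scaling, rows of the same gene and joint loci, the pseudocount, the filter on low FPKM and the fold. With the libraries scaled to equal upper quartiles the KO/WT ratio of Pck1 was 1.10, and centred on the median of expressed genes it was 1.13, both on the other side of 1 from the ratio as deposited. The median log2 KO/WT of the other gluconeogenesis genes was 0.10 and 0.14 under these settings, also with the opposite sign, and that of the other glycogen genes was -0.02 after centring. Centring multiplies every KO value by 1.18 and scaling to upper quartiles by 1.15, so these shifts follow from the setting itself. For the other 8 of the 9 genes the ratio stayed on the same side of 1 under each scaling. Its size did move: after centring, Gckr was at 1.44 and Gys2 at 1.38, while Slc2a2 was at 0.956 and Pygl at 0.929. Past the smallest fold tried, 2 of the 9 genes were lower in KO, Ppp1r3b and Pygl. Past 2-fold, 1 was higher, Ppp1r3c, since G6pc at 1.97-fold lies just inside that line, and under centring its ratio was 2.33. The ratio of Ppp1r3c ranged from 3.57 to 4.21 over the alternatives and that of Ppp1r3b from 0.434 to 0.512. By the estimated fragments, which depend on the chosen window, counting error was small for the 9 genes, but the spread between mice was not measured.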
